A study of Homo sapiens with 9 samples.

Results

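Messenger RNA levels of 10 genes that cut peptides for antigen presentation were compared between untreated and treated PC-3 cells, a long-established line grown from a human prostate cancer. The genes were the catalytic immunoproteasome subunits PSMB8, PSMB9 and PSMB10, their constitutive counterparts PSMB5, PSMB6 and PSMB7, the PA28 activator subunits PSME1 and PSME2, and the aminopeptidases ERAP1 and ERAP2. They were chosen by gene symbol, through the Ensembl identifiers of the count tables, and make up 10 of 60617 genes listed. All 10 passed the filter on low counts. The 9 RNA-seq libraries fell into 3 groups of 3: vehicle-treated control cells (Ctrl), cells given 1 µM of decitabine (Dec), and cells given 1 µM of decitabine together with 200 µM of S-adenosylmethionine (Dec_Sam). Treatment lasted 5 days, and the control cells received the solvent of the drugs, sulfuric acid and ethanol in buffered saline. Libraries of cells treated with S-adenosylmethionine (SAM) alone were not analysed here. The comparisons of Dec and Dec_Sam with Ctrl therefore share their 3 control libraries.

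The proteasome is a barrel-shaped protease that degrades ubiquitin-tagged proteins, and some of the peptides it releases are displayed on MHC class I molecules. Interferons induce PSMB8, PSMB9 and PSMB10, which replace PSMB5, PSMB6 and PSMB7 in newly assembled barrels and favour peptide ends that suit class I molecules. The PA28 ring of PSME1 and PSME2 docks on the barrel and opens it, and ERAP1 and ERAP2 trim the peptides further in the endoplasmic reticulum after the transporter TAP has brought them there. Decitabine is a cytidine analogue that blocks DNA methyltransferases, and SAM is the methyl donor that these enzymes use. The comparison of Dec with Ctrl asks what the demethylating agent does to these genes, and that of Dec_Sam with Dec asks what the added methyl donor changes.

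In the GRCh38 genome (annotation of GENCODE release 44), PSMB8 lies on chromosome 6 from 32840717 to 32844679 on the minus strand, and PSMB9 overlaps its 5′ end, from 32844136 to 32859851 on the plus strand. TAP1, a subunit of the TAP transporter, lies within the annotated span of PSMB9 on the opposite strand, from 32845209 to 32853816. PSME1 spans 24136163 to 24138967 on chromosome 14, and PSME2 follows after a gap of 4394 bases, from 24143362 to 24147570 on the other strand. ERAP1 spans 96760810 to 96808100 on chromosome 5 and is separated from ERAP2, at 96875986 to 96919703, by 67885 bases. PSMB10 lies on chromosome 16 from 67934506 to 67936864, PSMB5 on chromosome 14 from 23016543 to 23035230, PSMB6 on chromosome 17 from 4796144 to 4798502 and PSMB7 on chromosome 9 from 124353465 to 124415444. The deposited counts are per gene, so they do not separate exons, isoforms or starts. The annotated span of PSMB8 shares 602 bases with the antisense gene PSMB8-AS1 and 544 with PSMB9, and all 8608 bases of TAP1 lie within the span of PSMB9, on the opposite strand in each case. These are overlaps of whole gene spans, and how many exon bases are shared was not computed. The strand setting of the counting is not given in the sources used here, so reads from any shared exons cannot be assigned to one gene with certainty. Such reads could touch PSMB9, with the fewest counts of the 10 genes, as well as PSMB8.

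Windows of 300 bases around RefSeq start sites (250 before and 50 after) were at hand for 8 of the 10 genes, in 12 windows, while PSMB6 and PSMB7 were not in the table. They were searched on both strands for the core of the interferon-stimulated response element, a motif of many interferon-induced genes that IRF proteins bind, spelled GAAANNGAAA or, on the other strand, TTTCNNTTTC. A match lay in a window of 6 of the 7 inducible genes, and PSMB8, ERAP1 and ERAP2 each had another window without one. Of all 35116 single windows in the table, 3.57% held one. Counted by gene, 518 tested genes had a match and 12348 had none. The matching stretches are shown because they are the sequence feature that most of the inducible genes share. They are from RefSeq on GRCh38.p14, 5′ to 3′ on the strand of the gene, with the matching bases in capitals.
PSMB8, chr6:32844032-32844061, minus strand: gatctgtggcTTTCGCTTTCacttcctcct
PSMB10, chr16:67936852-67936881, minus strand: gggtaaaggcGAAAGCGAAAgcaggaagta
PSME1, chr14:24136189-24136218, plus strand: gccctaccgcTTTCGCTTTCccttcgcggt
PSME2, chr14:24146619-24146648, minus strand: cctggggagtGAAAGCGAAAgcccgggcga
ERAP1, chr5:96807924-96807953, minus strand: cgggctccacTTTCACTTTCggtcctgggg
ERAP2, chr5:96876460-96876489, plus strand: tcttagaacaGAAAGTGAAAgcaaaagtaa
TAP1, chr6:32853813-32853842, minus strand: ccgctttcgaTTTCGCTTTCccctaaatgg

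The match began at position -4 in PSMB8, -21 in PSMB10, 5 in PSME1, -28 in PSME2, 2 in ERAP1 and -30 in ERAP2, with the first transcribed base counted as 0. The ERAP2 match belonged to the downstream one of its 2 starts in the table, at 96876500. The PSMB8 match belonged to the start at 32844047 and the ERAP1 match to that at 96807945. In PSMB8, PSMB10, PSME1 and PSME2 the matched letters on one strand were the same, GAAAGCGAAA. No window of PSMB9 or PSMB5 held a match. The start of PSMB9 at 32854192 and that of TAP1 at 32853704 are 488 bases apart and point away from each other, and the TAP1 window held 2 overlapping matches, which lay 354 to 369 bases before the PSMB9 start. A match is a description of these letters, and binding was not measured.

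The windows differed widely in CpG sites, the dinucleotides that DNA methyltransferases act on. PSME1 held 31, ERAP1 28 at the start with the match and PSMB9 26, against a median of 14 over all windows. PSMB10 held 7, and the windows of ERAP2 held 1 and 3. The inducible genes thus included windows rich and poor in CpG sites, and their methylation was not analysed here. Of the other motifs searched, the gamma-activated site core (TTCNNNGAA, in 7.66% of all windows) was found in PSMB8 and PSMB5, and the GC box (GGGCGG or CCGCCC, in 44.95%) in PSMB8, PSMB9, PSME1 and PSME2. The antioxidant response element core (TGACNNNGC or GCNNNGTCA, in 13.35%) was found in PSMB9, PSME1 and PSME2.

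Depth was even, with 21934307 to 22489684 counts per library. The epithelial markers KRT8, KRT18 and EPCAM were expressed, and KLK3, the gene of prostate-specific antigen, was at 0 in all 9 libraries. Sums over markers of other cell types were higher after treatment, but not every marker rose. Summed counts of 8 blood cell markers were 10 to 15 in the Ctrl, 60 to 84 in the Dec and 56 to 61 in the Dec_Sam libraries. Among them MS4A1 and NKG7 were at 0 throughout, and LYZ had 4 counts in each Ctrl library and 0 to 5 after treatment. Summed CPM of 5 fibroblast markers were 3.36 to 5.40, 87.7 to 131 and 71.5 to 102, and those of 3 endothelial markers 9.88 to 10.6, 31.0 to 41.7 and 36.6 to 43.9. Most of the fibroblast sum came from COL1A1 and COL1A2, and most of the endothelial sum from PECAM1. The fibroblast marker PDGFRB did not rise, with means of 0.481, 0.366 and 0.478 CPM in Ctrl, Dec and Dec_Sam. The part of these markers in the results was not tested, and in bulk RNA a change in the share of cells cannot be told apart from a change per cell. Dec_Sam replicate 3 was nearer to 1 Dec library than to its own group. Its root mean square log2 difference over all tested genes was 0.397 to Dec replicate 3, and 0.494 and 0.446 to Dec replicates 1 and 2. To Dec_Sam replicates 1 and 2 it was 0.474 and 0.409, and these differed by 0.355 from each other. Differences within Ctrl were 0.424 to 0.467 and within Dec 0.358 to 0.444, so those of Dec_Sam replicate 3 to its group were of similar size. Fold changes of the 10 genes that involve Dec_Sam are therefore also given without it. No source states that the replicates were separate cultures, so p-values measure the spread between these libraries, which may be technical.

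After decitabine, all 7 inducible genes were upregulated, by 1.36-fold for PSMB10 to 16.3-fold for PSMB9, and all 3 constitutive subunits were downregulated by 1.31- to 1.63-fold. Of all 18532 genes tested, 36.3% were upregulated and 32.5% downregulated in this comparison at an adjusted p below 0.05 (edgeR, Benjamini-Hochberg). The median log2 fold change was 1.33 over the 7 inducible genes and 0.03 over all genes. With SAM added, 5 of the 7 inducible genes were lower than with decitabine alone, and 5 were higher than in the controls, where 35.9% of all genes were upregulated and 31.3% downregulated. Between Dec_Sam and Dec, 7.67% of all genes were upregulated and 8.02% downregulated, and the median log2 fold change was -0.79 over the inducible genes and 0.00 over all genes. Levels below are CPM, each gene's counts scaled to a library of 1000000 counts after TMM normalization, in the order of replicates 1, 2 and 3.

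**Figure D1:**
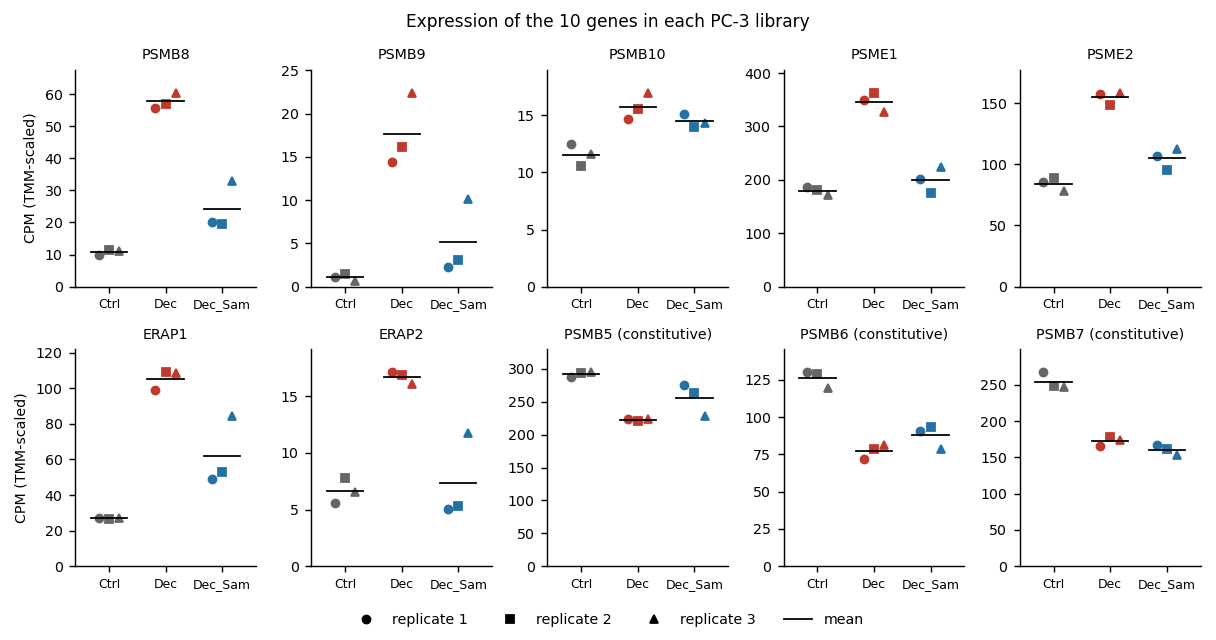
Expression of each gene (CPM on a linear axis from 0, with its own scale per gene) in the 3 Ctrl, 3 Dec and 3 Dec_Sam libraries, with the group mean as a line and the replicate number as the marker shape. The inducible genes are highest in Dec, and the triangle of Dec_Sam replicate 3 lies above the other Dec_Sam libraries in all of them except PSMB10.

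PSMB8 encodes the inducible subunit with chymotrypsin-like activity, the counterpart of PSMB5. It was at 9.73, 11.4 and 11.2 CPM in the Ctrl libraries, at 55.8, 57.1 and 60.5 in the Dec libraries and at 20.3, 19.5 and 32.8 in the Dec_Sam libraries. The 3 groups did not overlap, and the Dec_Sam libraries lay between the other groups. The log2 fold change was 2.42 ± 0.18 (SE, n = 3 per group) with decitabine (edgeR adjusted p = 6.2e-07) and 1.17 ± 0.18 with the combination treatment (edgeR adjusted p = 0.0002). The second value was 0.88 without Dec_Sam replicate 3 (edgeR adjusted p = 2.8e-06). Between the treatments PSMB8 fell by 1.26 on the log2 scale (edgeR adjusted p = 0.0017), and by 1.54 without Dec_Sam replicate 3 (edgeR adjusted p = 4.8e-08). The antisense gene PSMB8-AS1, with which it shares bases, went from 5 to 8 counts in the Ctrl libraries to 75 to 80 in Dec and 10 to 38 in Dec_Sam. These counts were small beside those of PSMB8, which were 196 to 227, 1319 to 1428 and 442 to 770.

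PSMB9 encodes the inducible counterpart of PSMB6, and its gene starts beside that of TAP1. Its level was 1.14, 1.40 and 0.691 CPM in the controls, 14.4, 16.2 and 22.4 with decitabine and 2.22, 3.12 and 10.1 with the combination treatment. No groups overlapped, although Dec_Sam replicate 3 was far above the other 2 libraries of its group. The control values rest on 14 to 28 counts per library. With decitabine PSMB9 rose by 4.03 ± 0.66 on the log2 scale (edgeR adjusted p = 0.0012), the largest change among the 10 genes. In Dec_Sam it was 2.26 ± 0.71 above the controls (edgeR adjusted p = 0.025), or 1.30 without Dec_Sam replicate 3 (edgeR adjusted p = 0.0032). That call was lost without any one of the 3 Ctrl libraries and with no filter on low counts, at adjusted p from 0.053 to 0.084.

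The change of PSMB9 between the treatments was -1.77 ± 0.53 with a 95% interval from -3.02 to -0.51, and it missed the threshold (edgeR adjusted p = 0.068). It passed the threshold with the replicate number as a block (-1.91, edgeR adjusted p = 0.037), with DESeq2 (adjusted p = 0.025), with voom and limma (adjusted p = 0.0047) and without Dec_Sam replicate 3 (-2.72, edgeR adjusted p = 1.3e-05). In the other 13 of 17 alternative fits PSMB9 missed the threshold. With 1 library left out, the change was as small as -1.41 and the edgeR adjusted p as high as 0.2. TAP1, its neighbour, was at 24.98 to 27.5 CPM in the Ctrl, 229 to 260 in the Dec and 86.7 to 149 in the Dec_Sam libraries. Its log2 fold changes were 3.24 and 2.08 against the controls and -1.16 between the treatments, each past the threshold (edgeR adjusted p at most 0.0052). The TAP1 level, too, was highest in replicate 3 among the Dec_Sam libraries.

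PSMB10 encodes the inducible counterpart of PSMB7. Its levels were 12.5, 10.6 and 11.7 CPM in Ctrl, 14.7, 15.5 and 17.0 in Dec, and 15.1, 14.0 and 14.4 in Dec_Sam. All treated libraries were above all controls, and the treated groups overlapped. PSMB10 rose by 0.44 ± 0.10 with decitabine (edgeR adjusted p = 0.0016) and by 0.33 ± 0.10 with the combination treatment (edgeR adjusted p = 0.013). The second change missed the threshold without Ctrl replicate 2 (0.26, edgeR adjusted p = 0.073). The difference between the treatments was -0.12, with a 95% interval from -0.34 to 0.10 (edgeR adjusted p = 0.46), so a fall as large as that of PSMB8 lay outside its interval. Without Dec_Sam replicate 3 the change was 0.33 with the combination treatment (edgeR adjusted p = 0.024) and -0.11 between the treatments (edgeR adjusted p = 0.53). Whether PSMB10 and the other inducible genes differ in their response was not tested.

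PSME1 and PSME2 encode the alpha and beta subunits of PA28 and started from much higher levels. PSME1 was at 186, 180.5 and 172 CPM in Ctrl, at 349, 363 and 326 in Dec and at 202, 175 and 224 in Dec_Sam. With decitabine all libraries were above all others, whereas the Ctrl and Dec_Sam libraries overlapped. The log2 fold change of PSME1 was 0.95 ± 0.09 with decitabine (edgeR adjusted p = 3.1e-07) and -0.79 ± 0.09 between the treatments (edgeR adjusted p = 0.00031). Against the controls it was 0.16 in Dec_Sam, with a 95% interval from -0.03 to 0.34 (edgeR adjusted p = 0.12). This value was 0.24 without Dec_Sam replicate 2 (edgeR adjusted p = 0.025) and 0.07 without Dec_Sam replicate 3 (edgeR adjusted p = 0.48). The fall between the treatments was 0.88 without Dec_Sam replicate 3 (edgeR adjusted p = 5.8e-06).

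PSME2 was at 85.7, 89.1 and 77.9 CPM in Ctrl, 158, 148 and 158 in Dec, and 107, 94.99 and 112 in Dec_Sam. Its 3 groups did not overlap. It rose by 0.88 ± 0.08 with decitabine (edgeR adjusted p = 2.3e-07) and by 0.31 ± 0.08 with the combination treatment (edgeR adjusted p = 0.0025), and it fell by 0.56 between the treatments (edgeR adjusted p = 0.00077). Without Dec_Sam replicate 3 the rise with the combination treatment was 0.26 (edgeR adjusted p = 0.012) and the fall between the treatments 0.62 (edgeR adjusted p = 0.00016). The 6 annotated PSME2 pseudogenes held at most 1 count in any library. PSME3, which forms a different activator ring in the nucleus and is not counted among the inducible genes, was at 194 to 202 CPM in Ctrl, 160 to 164 in Dec and 160 to 165 in Dec_Sam. It fell by 0.29 with decitabine (edgeR adjusted p = 0.00071) and by 0.27 with the combination treatment (edgeR adjusted p = 0.0012).

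ERAP1, which trims the amino ends of longer peptides, was at 27.1, 26.5 and 27.2 CPM in Ctrl, at 98.9, 109 and 109 in Dec, and at 48.8, 52.8 and 84.3 in Dec_Sam. The groups did not overlap, and Dec_Sam replicate 3 was closest to the decitabine libraries. ERAP1 rose by 1.97 ± 0.19 with decitabine (edgeR adjusted p = 9.6e-06) and by 1.21 ± 0.18 with the combination treatment (edgeR adjusted p = 0.00029). The second value was 0.92 without Dec_Sam replicate 3 (edgeR adjusted p = 2.2e-07). Between the treatments it fell by 0.77 (edgeR adjusted p = 0.02), and by 1.05 without that library (edgeR adjusted p = 4.6e-07). The call was lost without Dec replicate 1, 2 or 3, without Dec_Sam replicate 2 and in a fit of the 6 treated libraries alone, at adjusted p from 0.055 to 0.075.

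ERAP2, the related aminopeptidase with other substrate preferences, was at 5.56, 7.75 and 6.52 CPM in Ctrl, 17.1, 16.8 and 16.1 in Dec, and 5.01, 5.28 and 11.8 in Dec_Sam. In Dec_Sam replicates 1 and 2 it was below all control libraries, and in replicate 3 above all of them. It rose by 1.33 ± 0.29 with decitabine (edgeR adjusted p = 0.0028). In Dec_Sam it was 0.16 above Ctrl, with a 95% interval from -0.54 to 0.85 (edgeR adjusted p = 0.67). Without Dec_Sam replicate 3 the sign turned, to -0.36 (edgeR adjusted p = 0.05). Between the treatments ERAP2 fell by 1.18 (edgeR adjusted p = 0.027), or by 1.69 without that library (edgeR adjusted p = 2.5e-06). The call was lost in the fit of 6 libraries and without any one of Dec replicates 1 to 3 or Dec_Sam replicates 1 and 2, at adjusted p from 0.057 to 0.089. LNPEP, the next aminopeptidase gene beside ERAP2 on chromosome 5, was at 48.4 to 53.7, 44.3 to 50.5 and 35.3 to 44.8 CPM. Its log2 fold change was -0.12 with decitabine (edgeR adjusted p = 0.27), and it fell by 0.35 with the combination treatment (edgeR adjusted p = 0.0041).

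**Figure D2:**
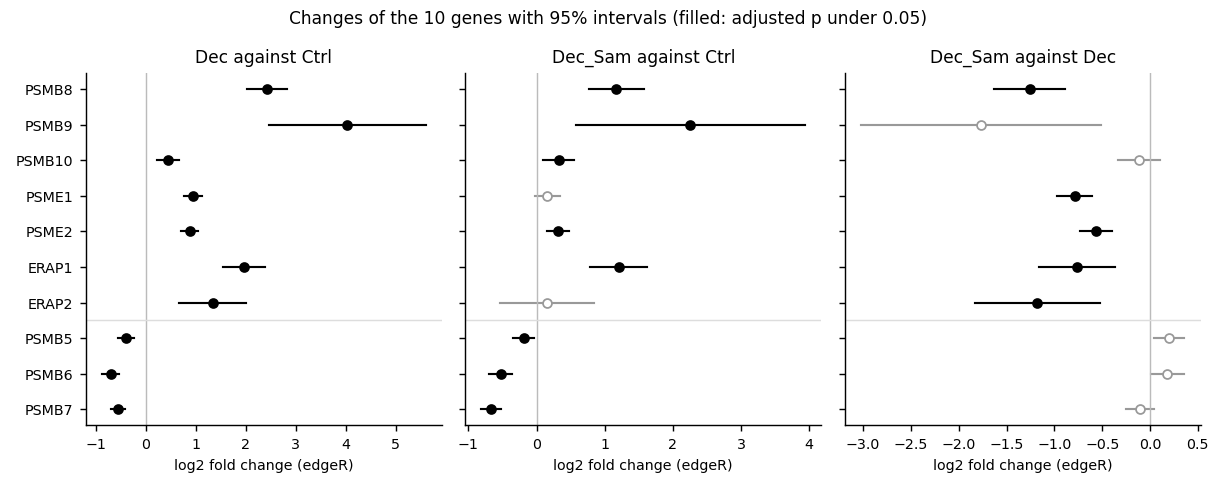
Log2 fold changes (x axis, edgeR) with 95% intervals of the 10 genes in the 3 comparisons, the 7 inducible genes above the line and the 3 constitutive subunits below it. Filled points have an adjusted p below 0.05: all 10 genes in Dec against Ctrl, 8 in Dec_Sam against Ctrl and 5 in Dec_Sam against Dec.

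The constitutive subunits moved the other way. PSMB5, with the chymotrypsin-like site, was at 288, 294 and 294.5 CPM in Ctrl, at 224, 221 and 223 in Dec and at 275, 264 and 229 in Dec_Sam. The groups did not overlap, and Dec_Sam replicate 3 was the Dec_Sam library nearest to Dec. PSMB5 fell by 0.39 with decitabine (edgeR adjusted p = 0.00029) and by 0.19 with the combination treatment (edgeR adjusted p = 0.034). The second call was lost without Ctrl replicate 2 or 3 or Dec_Sam replicate 2 or 3 and in a fit of the 6 libraries compared, at adjusted p from 0.05 to 0.13, and the value without Dec_Sam replicate 3 was -0.12. Between the treatments PSMB5 was 0.20 higher in Dec_Sam with a 95% interval from 0.04 to 0.36 (edgeR adjusted p = 0.079), and 0.28 higher without Dec_Sam replicate 3 (edgeR adjusted p = 0.0082).

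PSMB6, with the caspase-like site, was at 130.0, 129 and 120 CPM in Ctrl, 72.0, 78.8 and 81.5 in Dec, and 91.0, 93.5 and 78.7 in Dec_Sam. All treated libraries were below all controls, and the treated groups overlapped through Dec_Sam replicate 3. PSMB6 fell by 0.70 with decitabine (edgeR adjusted p = 2.4e-06) and by 0.52 with the combination treatment (edgeR adjusted p = 4.2e-05), or by 0.46 without Dec_Sam replicate 3 (edgeR adjusted p = 0.00012). Its difference between the treatments was 0.18, with a 95% interval from 0.01 to 0.35 (edgeR adjusted p = 0.14), and 0.25 without Dec_Sam replicate 3 (edgeR adjusted p = 0.028).

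PSMB7, with the trypsin-like site, was at 267, 249 and 248 CPM in Ctrl, 166, 178 and 174 in Dec, and 168, 162 and 153 in Dec_Sam. Again every treated library was below every control, and the treated groups overlapped. The log2 fold change was -0.56 ± 0.07 with decitabine (edgeR adjusted p = 4.9e-06), -0.66 ± 0.07 with the combination treatment (edgeR adjusted p = 9.7e-07) and -0.10 between the treatments, with a 95% interval from -0.25 to 0.04 (edgeR adjusted p = 0.32). Without Dec_Sam replicate 3 the last 2 were -0.63 (edgeR adjusted p = 3e-06) and -0.07 (edgeR adjusted p = 0.53).

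The size of these falls depended on the scaling of the libraries. With library size alone in place of TMM, the all-gene median shifted to a log2 fold change of 0.28 with decitabine and 0.27 with the combination treatment, from 0.03 and 0.05. PSMB5 then missed the threshold with decitabine (-0.15, edgeR adjusted p = 0.071) and changed sign with the combination treatment (0.03, edgeR adjusted p = 0.72), while PSMB6 and PSMB7 remained lower, at -0.46 and -0.31 with decitabine and -0.31 and -0.44 with the combination treatment (edgeR adjusted p at most 0.0028). PSME1 passed the threshold in Dec_Sam against Ctrl under that scaling (0.38, edgeR adjusted p = 0.0017). Relative to the median of all genes, PSMB5 was lower by 0.43 with decitabine and 0.24 with the combination treatment. A change of scaling moves all genes nearly alike, so this distance is bound to be the same under both scalings and cannot decide between them.

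Ratios of an inducible subunit to its counterpart within a library do not depend on that scaling. In CPM per kilobase of the canonical transcript, PSMB8 was 3.15%, 3.59% and 3.54% of PSMB5 in the Ctrl libraries, 23.1%, 24.0% and 25.2% in Dec, and 6.85%, 6.86% and 13.3% in Dec_Sam. PSMB9 was 0.727%, 0.896% and 0.485% of PSMB6 in Ctrl, 16.2%, 16.6% and 22.3% in Dec, and 1.99%, 2.73% and 10.5% in Dec_Sam. For both pairs the 3 groups did not overlap. PSMB10 was 4.70%, 4.27% and 4.74% of PSMB7 in Ctrl, 8.91%, 8.79% and 9.84% in Dec and 9.09%, 8.75% and 9.45% in Dec_Sam, so that the treated groups overlapped and both lay above the controls.

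The log2 ratio rose with decitabine by 2.82 for PSMB8 to PSMB5, 4.74 for PSMB9 to PSMB6 and 1.01 for PSMB10 to PSMB7. With the combination treatment the changes from the controls were 1.32, 2.50 and 0.99, and between the treatments they were -1.49, -2.24 and -0.01. A two-sided exact permutation test of 3 against 3 libraries gave p = 0.1, the smallest it can give, in 8 of these 9 tests (adjusted p = 0.11) and p = 0.8 for PSMB10 to PSMB7 between the treatments. With 3 libraries per group this test cannot go below that value, whatever the size of the change. Without Dec_Sam replicate 3, the ratio of PSMB8 to PSMB5 was 1.002 and that of PSMB9 to PSMB6 1.77 above the controls on the log2 scale, and they were -1.81 and -2.96 between the treatments.

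Summed per kilobase over the 6 catalytic subunits, the 3 inducible ones made up 3.10%, 3.12% and 3.22% of transcripts in Ctrl, 14.3%, 14.5% and 16.0% in Dec and 6.15%, 6.15% and 10.3% in Dec_Sam. The groups did not overlap, and without Dec_Sam replicate 3 both Dec_Sam libraries were at 6.15%. Constitutive transcripts thus remained the larger part in every library. With coding length in place of transcript length the means were 3.26%, 16.2% and 7.96%.

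**Figure D3:**
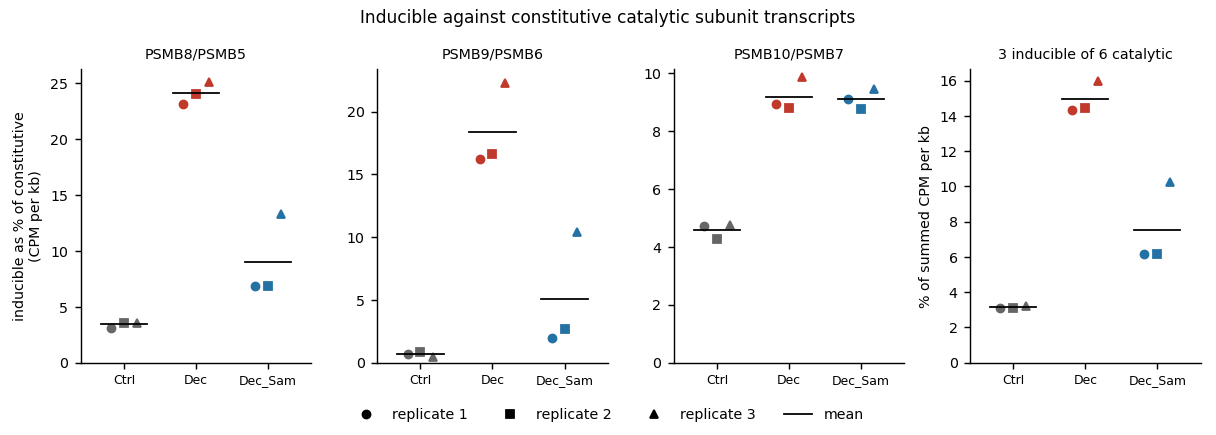
Level of each inducible catalytic subunit as a percentage of its constitutive counterpart, and the share of the 3 inducible subunits among all 6 (last panel), in CPM per kilobase for each library, with group means as lines. Dec_Sam lies between Ctrl and Dec for PSMB8/PSMB5, PSMB9/PSMB6 and the share, and beside Dec for PSMB10/PSMB7.

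On the same per-length scale, the order of the levels in Ctrl was PSMB5 (279.8 CPM per kilobase), PSMB7 (259), PSME1 (186), PSMB6 (153), PSME2 (106), PSMB10 (11.8), PSMB8 (9.58), ERAP1 (5.56), ERAP2 (1.29) and PSMB9 (1.06). Only the last 2 neighbours overlapped between libraries. In Dec, PSME1 came first with 359 CPM per kilobase and ERAP2 last with 3.25, and PSMB9, at 17.4, overlapped with ERAP1 above it (21.8) and PSMB10 below it (16.1). In Dec_Sam, PSMB5 (245) overlapped with PSME1 (208), PSMB10 (14.8) with ERAP1 (12.8), and PSMB9 (5.07) with ERAP2 (1.43). The kilobase values use 1 annotated transcript per gene, and the isoform used by these cells was not determined.

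The distance each gene kept from the controls after SAM was added differed between genes and between libraries. On a log2 scale running from 0% at the Ctrl mean to 100% at the Dec mean, Dec_Sam replicates 1, 2 and 3 lay at 37.8%, 35.2% and 66.3% for PSMB8 and at 26.2%, 38.3% and 80.6% for PSMB9. ERAP1 lay at 43.6%, 49.4% and 83.7%, and ERAP2 at -28.6%, -23.0% and 62.6%. PSME1 lay at 18%, -3.83% and 33.8%, and PSME2 at 39.4%, 19.97% and 47.4%. Replicate 3 was thus nearest to decitabine in these 6 genes. For PSMB10 the positions were 87.6%, 62.7% and 71.0%, and replicate 1 was highest. These positions describe the libraries and carry no test.

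**Figure D4:**
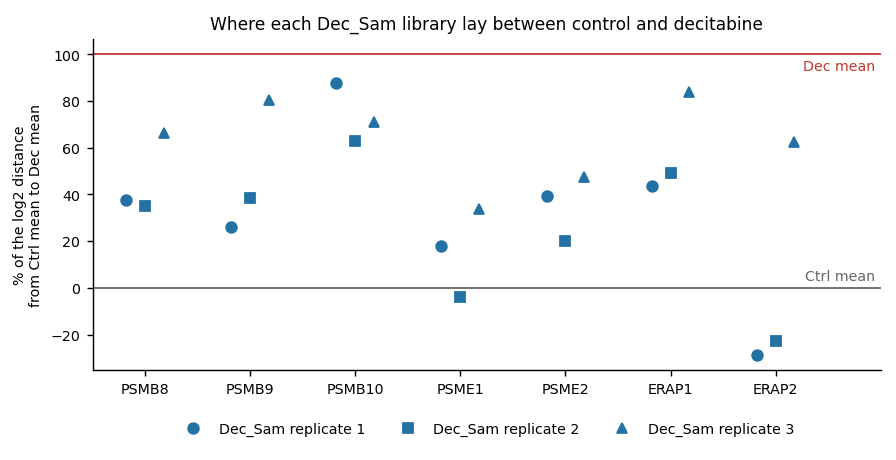
Position of each Dec_Sam library between the Ctrl mean (0%) and the Dec mean (100%) on the log2 scale, for the 7 inducible genes, with the replicate number as the marker shape. Replicate 3 is the highest in 6 of the 7 genes, and ERAP2 in replicates 1 and 2 lies below the Ctrl mean.

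Among the other proteasome genes, most calls with either treatment were falls, against 32.5% and 31.3% of all genes downregulated. Of 11 other subunits of the core barrel, 1 was upregulated and 8 were downregulated with decitabine (median -0.29 on the log2 scale), and 0 and 6 with the combination treatment (-0.20). The one that rose was PSMA6 (0.18, edgeR adjusted p = 0.024), named after its value was seen. PSMA1 and PSMA7, both alpha ring subunits, fell by 0.64 (edgeR adjusted p = 2.4e-06 and 9e-06), and PSMA7 was 0.29 higher in Dec_Sam than in Dec (edgeR adjusted p = 0.028). Of 19 subunits of the regulatory cap that recognises ubiquitin, 13 were downregulated with decitabine (median -0.32) and 13 with the combination treatment (median -0.29), against 0 and 1 upregulated. PSMC3, one of its ATPases, fell by 0.87 and 0.92 (edgeR adjusted p = 1.3e-07 and 7.9e-08). SEM1, its smallest subunit, was 0.39 higher in Dec_Sam than in Dec (edgeR adjusted p = 0.0084) and 0.20 higher than in Ctrl (edgeR adjusted p = 0.048). Between Dec_Sam and Dec, 1 of the 19 was upregulated and 0 downregulated, against 7.67% and 8.02% of all genes.

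Of 9 assembly chaperones, 5 were downregulated and 1 was upregulated with each treatment (median -0.21 in both). Of all genes, 32.5% were downregulated and 36.3% upregulated with decitabine, and 31.3% and 35.9% with the combination treatment. PSMG1, a chaperone of the alpha ring, fell by 0.65 with decitabine (edgeR adjusted p = 2.3e-05) and by 0.57 with the combination treatment (edgeR adjusted p = 7.1e-05). POMP, the chaperone on which inducible subunits depend for their fast assembly, rose by 0.20 (edgeR adjusted p = 0.031) and 0.25 (edgeR adjusted p = 0.0099). PSMD10 was 0.33 higher in Dec_Sam than in Dec (edgeR adjusted p = 0.02), the only one of the 9 with a call there. Of all genes, 7.67% were upregulated and 8.02% downregulated between the treatments. Of 4 other activator and inhibitor genes, 3 fell with each treatment (medians -0.23 and -0.24), among them PSME3 and, with the largest change under the combination treatment, PSME3IP1 (-0.36, edgeR adjusted p = 0.00095).

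Of 4 regulators of proteasome genes, 1 rose and 2 fell with decitabine (median -0.25), and 0 rose and 3 fell with the combination treatment (median -0.33). The counts with decitabine were near the shares of all genes called, 36.3% up and 32.5% down. With the combination treatment those shares were 35.9% up and 31.3% down. NFE2L1, the factor that raises proteasome subunit genes when the proteasome is impaired, rose by 0.33 with decitabine (edgeR adjusted p = 0.0015) and stood at 0.15 with the combination treatment (edgeR adjusted p = 0.11). NGLY1, the enzyme that processes it, fell by 0.40 and 0.49 (edgeR adjusted p = 0.00033 and 5.2e-05). Of the tissue-specific subunits, PSMA8 of the testis proteasome had 0 counts in all Ctrl libraries, 12, 11 and 9 counts in Dec and 12, 11 and 14 in Dec_Sam. PSMB11 of the thymus had 0 counts in Ctrl and 2 to 4 in the treated libraries, and was not tested.

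Among 7 other peptidases of the class I pathway, 1 rose and 3 fell with decitabine (median -0.12), and 0 rose and 6 fell with the combination treatment (median -0.35). Of all genes, 36.3% rose and 32.5% fell with decitabine, so 3 falls among 7 were near the background. With the combination treatment 35.9% of all genes rose and 31.3% fell. LAP3, a cytosolic leucine aminopeptidase that interferon induces, was at 183, 166 and 174 CPM in Ctrl, 303, 263 and 214 in Dec, and 112, 96.8 and 129 in Dec_Sam. The 3 groups did not overlap, and Dec_Sam was below Ctrl. It rose by 0.58 with decitabine (edgeR adjusted p = 0.0013), fell by 0.63 with the combination treatment (edgeR adjusted p = 0.00077) and fell by 1.21 between the treatments (edgeR adjusted p = 0.00037). BLMH, the cytosolic bleomycin hydrolase, fell by 1.11 and 0.94 (edgeR adjusted p = 4.8e-08 and 2.4e-07).

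The genes that load peptides on class I molecules moved in number with the inducible subunits. Of all genes, 36.3% were upregulated with decitabine and 35.9% with the combination treatment. Of the 13 loading genes, 10 were upregulated and 2 downregulated with decitabine (median 1.27), and 9 and 2 with the combination treatment (median 0.78). Between the treatments 0 of the 13 were upregulated and 8 downregulated (median -0.66). The largest changes were those of HLA-F, a class I gene of limited tissue range, at 3.90 and 2.09 against the controls and -1.81 between the treatments (edgeR adjusted p = 0.00055, 0.018 and 0.042). Of 12 tested interferon receptors, kinases and factors, 8 were upregulated and 1 downregulated with decitabine (median 0.90), 4 and 0 with the combination treatment (median 0.16), and 0 and 7 between the treatments (median -0.56). The 4 of 12 upregulated with the combination treatment were near the 35.9% of all genes, while 8.02% of all genes were downregulated between the treatments.

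Among these factors, NLRC5 and IRF1 are known to act on genes of the class I pathway. NLRC5, the transactivator of class I genes, was at 2.33, 2.25 and 1.83 CPM in Ctrl, 31.2, 29.4 and 29.6 in Dec, and 3.88, 4.004 and 12.2 in Dec_Sam. IRF1, which binds response elements, was at 16.5, 18.1 and 15.1 CPM in Ctrl, 40.1, 37.4 and 32.9 in Dec, and 17.6, 16.5 and 24.7 in Dec_Sam. Both were highest in Dec, and within Dec_Sam both were highest in replicate 3, as were 6 of the 7 inducible genes. The log2 fold changes between the treatments were -2.16 and -0.91 (edgeR adjusted p = 0.015 and 0.0018), and IRF1 did not pass the threshold in Dec_Sam against Ctrl (0.24, edgeR adjusted p = 0.15). The part of these factors in the levels of the 10 genes was not tested.

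**Figure D5:**
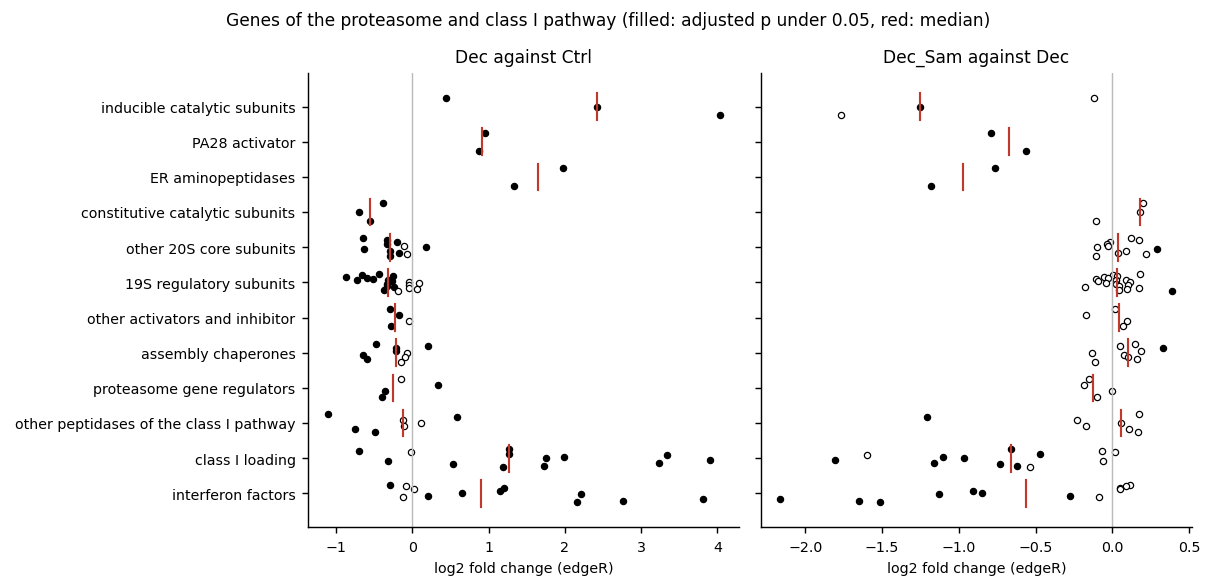
Log2 fold changes (x axis, edgeR) of each tested gene in the lists of proteasome and class I pathway genes, for Dec against Ctrl and Dec_Sam against Dec, with filled points for an adjusted p below 0.05 and a red line at the median. With decitabine the medians of the core, cap and chaperone lists are at -0.29, -0.32 and -0.21, and those of class I loading genes and interferon factors at 1.27 and 0.90.

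Over all tested genes with a RefSeq window, those with a response element core were also described. Of 518 such genes, 45.6% were upregulated and 29.2% downregulated with decitabine, against 34.0% and 36.5% of 12348 genes without a match. Between the treatments, 5.79% were upregulated and 20.1% downregulated, against 8.71% and 7.61%. The 6 inducible genes shown above are among the 518, and no test was made of these shares.

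The genes whose log2 CPM, centred on the mean of the 9 libraries, differed least from that of PSMB9 were APOL3, GBP4, HLA-F, ISG15 and OAS2, with root mean square differences of 0.206, 0.270, 0.272, 0.288 and 0.315 among 18531 genes compared. For ERAP1 they were TDRD7, RBMS2, MYD88, AADACP1 and SNAPC1, at 0.096, 0.113, 0.114, 0.122 and 0.124. PSMB8 ranked 55 in likeness to ERAP1 and 217 in likeness to PSMB9, with differences of 0.235 and 0.766. The other immunoproteasome catalytic subunit, PSMB10, ranked 5868 in likeness to PSMB9.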

How the data were processed

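RNA of PC-3 cells in 9 libraries (3 each of Ctrl, Dec and Dec_Sam, grouped by the sample labels) had been sequenced on a BGISEQ-500 instrument. The authors trimmed reads with Trim Galore 0.6.4 and quantified them with kallisto (version 0.4.6 per the labels) against GRCh38.p13, and deposited estimated counts per Ensembl gene, which are not normalized. These were rounded to whole numbers. Deposited log2 CPM files were not used. Of 60617 identifiers, 60357 were matched to GENCODE release 44.

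The 18532 genes that passed filterByExpr of edgeR 4.0.16 (R 4.3.3) were tested with TMM scaling, robust dispersions and the quasi-likelihood test. The fit had 1 mean per group over all 9 libraries, so the spread within Dec_Sam also widens the intervals of Dec against Ctrl. P-values were adjusted over all tested genes by the Benjamini-Hochberg method at a threshold of 0.05. The study's methods name voom and limma, which were run as an alternative (limma 3.58.1), as were DESeq2 1.42.0, other scalings and filters, a replicate block and leaving out each library. Ratios used a pseudocount of 0.5 counts and a two-sided exact permutation test. Fits were tested on simulated data. Within each group no library was a copy of another, with a chi-square per degree of freedom of 5.86 to 23.5 between libraries. Pairs from different groups were not compared in this way.

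Named were the 10 genes, their genomic neighbours and direct partners (TAP1, LNPEP, PSME3, POMP, PSMA8, PSMB11, LAP3, IRF1, NLRC5, NFE2L1), the largest change of each list and the 5 genes most like PSMB9 and ERAP1. PSMA7 with decitabine and PSMB8-AS1 were added after their values were seen. Some single genes of the rule are not reported here. The genes and lists were chosen with earlier results of these data known. The coding length came from the canonical GENCODE transcript.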

Additional observations from a re-analysis of the deposited data

How the results depend on the processing

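Of 510 alternative values of the members' fold changes, 478 kept their direction and their side of the threshold, 22 lost it, 8 gained it and 2 changed sign. The sign changes were PSMB5 in Dec_Sam against Ctrl with library size alone (0.029) and ERAP2 in the same comparison without Dec_Sam replicate 3 (-0.365, in a range up to 0.358 over the other libraries left out). Library size alone lowered the downregulated genes from 6030 to 3746 for Dec and from 5799 to 3857 for Dec_Sam, both against Ctrl. With a log2 fold change over 1 required, 4208 genes were upregulated and 1139 downregulated with decitabine, 3962 and 1216 with the combination treatment, and 74 and 323 between the treatments. Leaving out 1 library moved the upregulated genes between the treatments from 381 (without Dec_Sam replicate 2) to 2066 and the downregulated from 480 to 1997, against 1421 and 1487. The upregulated genes were 381 to 846 without Dec replicate 1 or 2 or Dec_Sam replicate 1 or 2, and both highest values were reached without Dec_Sam replicate 3. It left 3 to 6 members lower between the treatments, 0 to 2 higher, and 3 to 6 higher in Dec_Sam against Ctrl. The fit of 6 libraries called 3 members lower between the treatments. The log2 ratio of PSMB10 to PSMB7 between the treatments ranged from -0.043 to 0.039. The share of inducible subunits by coding length was 3.26% in Ctrl and 16.2% in Dec. The causes of these changes were not tested. Replicate numbers are shared between groups, and the deviations of same-numbered libraries correlated at -0.0165 to 0.233, with 2 of 9 pairs over 0.1. Both were pairs of Dec with Dec_Sam, at 0.233 for replicate 1 and 0.229 for replicate 3. The crossed pairs of these libraries were at -0.22, and the pair of replicate 2 was at 0.0359. Whether the number pairs the Dec and Dec_Sam libraries is therefore not settled. With the replicate block, 6808 genes were upregulated and 6137 downregulated with decitabine, and PSMB9 between the treatments passed the threshold (-1.91, edgeR adjusted p = 0.037). Depth limited PSMB9 in the controls (14 to 28 counts) most among the members.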
